A study of Homo sapiens with 2 samples.

Results

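Common fragile sites are stretches of normal human chromosomes that show gaps and breaks when DNA replication is mildly slowed. Many of them lie inside very long genes that replicate late and offer few replication origins, and deletions within these genes are frequent in tumours. The genes described are FHIT, WWOX, IMMP2L, MACROD2, LRP1B, CNTNAP2, CTNNA3 and DLG2, 8 of the 18644 gene names in the deposited table. They were chosen by name, as large genes of such sites, and every window that the table assigns to them was used, 268 of 61607 windows (0.435%). The table lists 7 of them under these names, and MACROD2 under its older symbol C20orf133.

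The values come from 4C-seq of U2OS, an osteosarcoma cell line carrying the transgenes DRGFP, TRE-I-SceI and Tet-On. In 4C, DNA fragments that lie together in fixed nuclei are joined by ligation, and the partners of 1 bait fragment are then amplified and sequenced, so that reads mark sequences close to the bait. The bait lies beside the I-SceI site of DRGFP, a homologous recombination reporter, and no induction of the enzyme is recorded in the labels. Both libraries form 1 group of 2 independent experiments without a control group, so each gene was compared with its chromosome within each library.

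Signal is given in windows of 50 kb, called probes, on hg18, and the libraries held 944456 reads (replicate 1) and 454091 reads (replicate 2). Leaving aside chromosomes 6, 12, 17 and Y, at least 1 read was found at 6.45% of probes in replicate 1 and 6.82% in replicate 2. There, 42.3% and 32.4% of the detected probes held a single read. Chromosomes 6, 12 and 17 carry long stretches of raised signal, and none of the 8 genes lies on them. With no contrast between samples, no test across samples could be made. Shares are given with 95% Clopper-Pearson intervals that cover counting error alone, and means with the SD over the 2 libraries. PCR copies are not independent molecules, and neighbouring probes are not independent of each other.

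The 8 genes are long in the table too. CNTNAP2 has more probes than any other gene name (47 probes, 2350 kb), DLG2 ranks 2 (45 probes), MACROD2 ranks 4 (41), LRP1B ranks 5 (39) and CTNNA3 ranks 6 (37). WWOX has 24 probes, IMMP2L 19 and FHIT 16. All 268 probes overlap their gene. The deposited annotation does not separate exons from introns. The annotation covers FHIT in part. Its probes span 800 kb, while the RefSeq gene measures 1504 kb. Shares, sections and flanks of FHIT below refer to these 800 kb, so its flanks may hold the rest of the gene. For the other genes the span was within 100 kb of the RefSeq length.

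**Figure D1:**
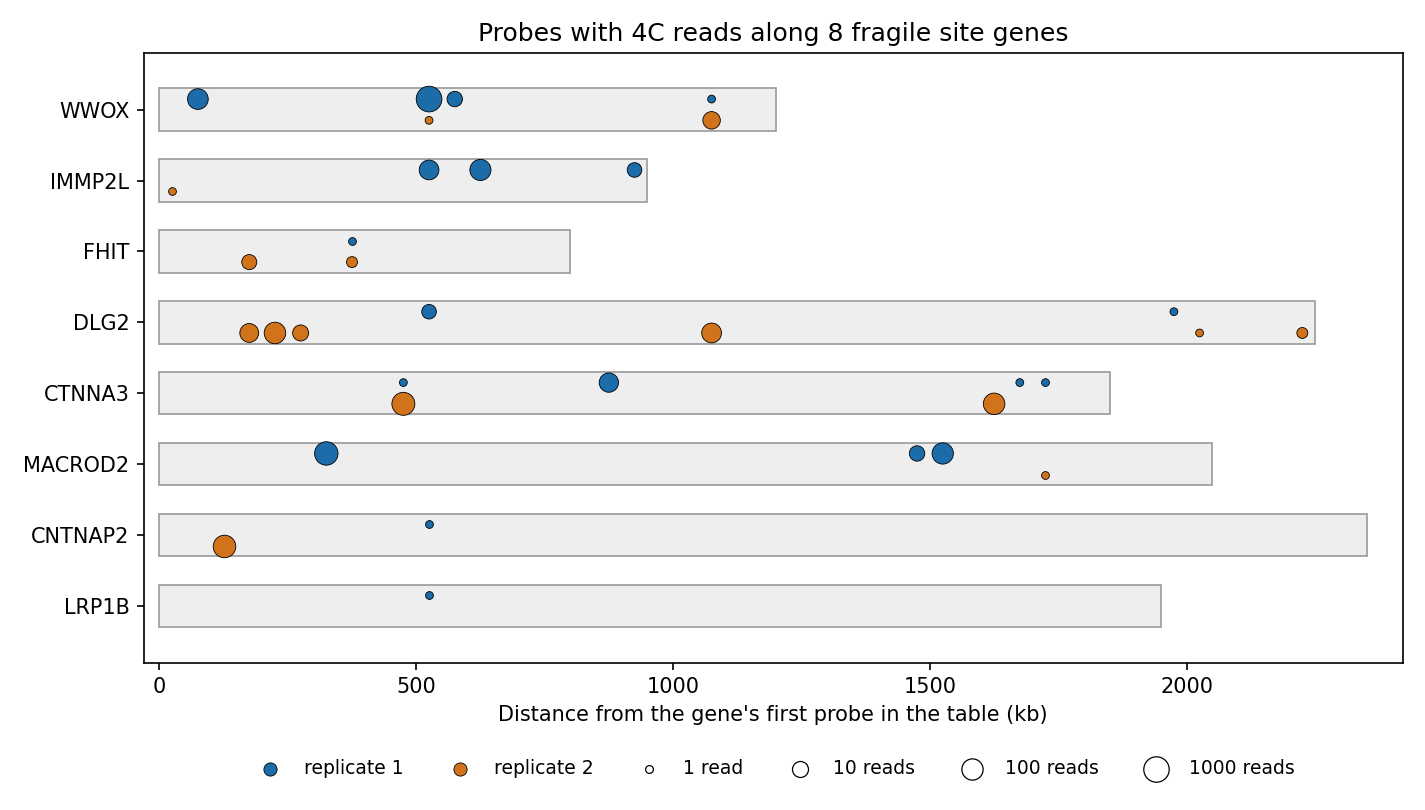
Probes with reads along each gene. The x axis is the distance in kb from the gene's first probe in the table, each grey bar is a gene as the table delimits it, blue points (upper row of each bar) are replicate 1 and orange points (lower row) replicate 2, and point size grows with the logarithm of the read number. Blue and orange points share a position at 4 probes, and LRP1B holds a single point.

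The 8 genes had reads about as often as their chromosomes. In replicate 1, 19 of their 268 probes had reads (7.09%, interval 4.32% to 10.8%), against 6.95% for all probes of the same chromosomes, weighted by each gene's probes. In replicate 2, 15 of 268 had reads (5.60%, interval 3.17% to 9.06%), against 7.24% for the chromosomes. The difference, genes minus chromosomes, was 0.142 percentage points in replicate 1 and -1.64 in replicate 2, with a mean of -0.750 ± 1.26 (SD, n = 2). It differed in sign between the libraries and was smaller than their spread. Both depended on WWOX and on the setting. Without WWOX, a choice made after seeing the data, the difference was -0.902 and -1.98 in replicates 1 and 2, with a mean of -1.44 ± 0.759 (n = 2). Counting probes with at least 2 reads it was -0.0801 and -0.949, and against the probes of the chromosomes that overlap a gene -0.206 and -1.85. Counting probes with at least 10 reads it was 0.0807 and 0.332, with a mean of 0.207. At this depth, shares between the interval bounds could not be told from that of the chromosome.

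Of the genes that encode enzymes, WWOX was the one member with a share above its chromosome in both libraries. WWOX, an oxidoreductase with WW domains and a tumour suppressor at FRA16D (chromosome 16, 76650001 to 77850000), had reads at 4 of 24 probes in replicate 1 (16.7%) and 2 of 24 in replicate 2 (8.33%). All probes of chromosome 16 gave 5.91% and 6.58%. Its mean share was 12.5% ± 5.89 (n = 2), and both intervals, 4.74% to 37.4% and 1.03% to 27.0%, included the chromosome. Counting probes with at least 2 reads, no gene stood above its chromosome in both libraries, WWOX included. Counting those with at least 10 reads, WWOX and CTNNA3 did.

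Most WWOX reads sat at 1 probe. The probe from 77150001 to 77200000 held 1140 reads in replicate 1 (1207 RPM, reads per 1000000 reads of the library) and 1 read in replicate 2 (2.20 RPM). That is 93.1% of the reads of WWOX in replicate 1, and the next probe held 8 reads there and 0 in replicate 2. The probe from 76700001 to 76750000 held 75 reads in replicate 1 and 0 in replicate 2. A probe near the end of the gene, from 77700001 to 77750000, held 1 read in replicate 1 and 18 in replicate 2. The libraries thus placed most of their WWOX reads at different probes.

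FHIT, a diadenosine triphosphate hydrolase gene and tumour suppressor at FRA3B (chromosome 3, 59700001 to 60500000), had reads at 1 of 16 probes in replicate 1 (6.25%) and 2 of 16 in replicate 2 (12.5%). Chromosome 3 gave 7.30% and 7.70%. The probe from 60050001 to 60100000 held 1 and 2 reads in replicates 1 and 2, and the probe from 59850001 to 59900000 held 0 and 7. FHIT was therefore detected through few reads, 1 and 9 in all. Beyond its last probe in the table, the next 700 kb had no reads in either library. These 700 kb may belong to FHIT, as the table assigns it 800 kb and RefSeq 1504 kb. Counting them would lower both shares, which describe the assigned part alone.

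IMMP2L, which encodes a subunit of the mitochondrial inner membrane peptidase, at FRA7K (chromosome 7, 110050001 to 111000000), had reads at 3 of 19 probes in replicate 1 (15.8%) and 1 of 19 in replicate 2 (5.26%). Chromosome 7 gave 8.09% and 7.55%. The 3 probes of replicate 1 held 47, 92 and 6 reads and had 0 in replicate 2. The single read of replicate 2 fell on the first probe, at 0 in replicate 1. No IMMP2L probe was shared.

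MACROD2, a mono-ADP-ribosylhydrolase gene (chromosome 20, 13950001 to 16000000), had reads at 3 of 41 probes in replicate 1 (7.32%) and 1 of 41 in replicate 2 (2.44%). Chromosome 20 gave 5.04% and 5.60%. In replicate 1 the probe from 14250001 to 14300000 held 316 reads and the neighbouring probes from 15400001 to 15500000 held 8 and 101. Replicate 2 had 0 reads at all 3 and a single read at the probe from 15650001 to 15700000. MACROD2 summed to 425 reads in replicate 1 and 1 read in replicate 2.

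Short promoters of IMMP2L and DLG2 are shown because the probe at the end of the gene where transcription starts had reads in 1 library: the last IMMP2L probe (110950001 to 111000000), with 6 and 0 reads in replicates 1 and 2, and the last DLG2 probe (chromosome 11, 85000001 to 85050000), with 0 and 2. The sequences are RefSeq's (GRCh38.p14, another build than that of the probes), on the gene's strand, from 250 bases before to 50 after the start. IMMP2L lies at chr7:111562443-111562742 on the minus strand and the outermost DLG2 start at chr11:85628324-85628623 on the minus strand. Capitals mark the Csp6I site, GTAC, and would mark the HindIII site, AAGCTT; both read the same on either strand.
IMMP2L: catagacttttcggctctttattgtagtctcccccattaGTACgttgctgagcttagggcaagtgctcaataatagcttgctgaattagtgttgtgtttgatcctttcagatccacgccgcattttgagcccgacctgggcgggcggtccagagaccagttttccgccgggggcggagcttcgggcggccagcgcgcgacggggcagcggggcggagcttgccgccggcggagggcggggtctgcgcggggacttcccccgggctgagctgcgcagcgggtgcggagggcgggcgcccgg
DLG2: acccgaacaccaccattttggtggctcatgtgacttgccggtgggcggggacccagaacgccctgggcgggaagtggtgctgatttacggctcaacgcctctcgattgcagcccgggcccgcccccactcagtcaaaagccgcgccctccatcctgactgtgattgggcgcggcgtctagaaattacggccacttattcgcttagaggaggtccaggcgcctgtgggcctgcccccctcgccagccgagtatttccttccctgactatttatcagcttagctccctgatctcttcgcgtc
HindIII makes the first cut of the 4C protocol and Csp6I the second, so a read needs both sites nearby. The IMMP2L window holds 1 Csp6I site and the DLG2 window 0, and neither holds a HindIII site. Among 18 RefSeq promoter windows of 7 of the 8 genes, 0 held AAGCTT and 7 held GTAC, against 5.84% and 29.8% of all 35116 windows. LRP1B had no entry in that table. These windows describe letters near the starts and not the restriction fragments of the 50 kb probes, which were not mapped here.

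The genes of cell surface, adhesion and synaptic proteins held the 2 least detected members. LRP1B, a member of the LDL receptor family at FRA2F (chromosome 2, 140700001 to 142650000), had 1 read at 1 of 39 probes in replicate 1 (2.56%, interval 0.0649% to 13.5%) and none in replicate 2. In replicate 2, 0 of 39 probes allows a share of up to 7.69% by a limit of 3 probes and up to 9.03% by the exact interval. Chromosome 2 gave 7.60% in replicate 1 and 8.07% in replicate 2. CNTNAP2, a neurexin-like adhesion gene of axons at FRA7I (chromosome 7, 145400001 to 147750000), had reads at 1 of 47 probes in each library (2.13%, interval 0.0539% to 11.3%). These were 1 read at the probe from 145900001 to 145950000 in replicate 1, at 0 in replicate 2, and 195 reads at the probe from 145500001 to 145550000 in replicate 2, at 0 in replicate 1. Beyond them, 1800 kb of CNTNAP2 had no reads in either library, and the longest such run in LRP1B was 1400 kb.

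Both lay below their chromosome in both libraries, by -5.03 and -8.07 percentage points for LRP1B and by -5.96 and -5.43 for CNTNAP2. They were the 2 of 8 genes below in both libraries, with 1 above in both and 5 that differed in direction. FHIT, among the 5, was counted over its assigned part alone. Of 109 gene names with at least 15 probes off chromosomes 6, 12, 17 and Y, these 8 included, 37.6% lay below their chromosome in both libraries and 22.9% above in both. The chromosome's share was inside the exact interval of LRP1B and of CNTNAP2 in each library. For LRP1B in replicate 2 the 2 limits differed, as the chromosome's 8.07% lay between 7.69% (limit of 3 probes) and 9.03% (exact interval).

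CTNNA3, which encodes an alpha-catenin of cell junctions, at FRA10D (chromosome 10, 67300001 to 69150000), had reads at 4 of 37 probes in replicate 1 (10.8%) and 2 of 37 in replicate 2 (5.41%). Chromosome 10 gave 6.94% and 7.05%. The probe from 67750001 to 67800000 held 1 read in replicate 1 and 245 in replicate 2. The probe from 68150001 to 68200000 held 40 and 0 reads in replicates 1 and 2, and that from 68900001 to 68950000 held 0 and 114. The next 2 probes held 1 read each in replicate 1. High probes of one library were thus at 0 or 1 read in the other.

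DLG2, a scaffold gene of the postsynaptic density at FRA11F (chromosome 11, 82800001 to 85050000), had reads at 2 of 45 probes in replicate 1 (4.44%) and 6 of 45 in replicate 2 (13.3%, interval 5.05% to 26.8%). Chromosome 11 gave 6.88% and 7.88%. In replicate 2, 3 neighbouring probes from 82950001 to 83100000 held 32, 114 and 10 reads and the probe from 83850001 to 83900000 held 49, all at 0 in replicate 1. Replicate 1 had 6 reads at the probe from 83300001 to 83350000 and 1 read at that from 84750001 to 84800000, both at 0 in replicate 2. None of the 8 detected DLG2 probes was shared.

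By mean share over the libraries, the order ran from WWOX (12.5% ± 5.89) through IMMP2L (10.5% ± 7.44), FHIT (9.38% ± 4.42), DLG2 (8.89% ± 6.29), CTNNA3 (8.11% ± 3.82) and MACROD2 (4.88% ± 3.45) to CNTNAP2 (2.13%, equal in both) and LRP1B (1.28% ± 1.81). No 2 neighbours in this order differed by more than the larger of their SDs. In replicate 1, 4 of the 8 genes lay above their chromosome and in replicate 2, 3 did. How many other long genes lay above in each single library is not given here, so these counts cannot be called high or low. The median difference of the 8 genes from their chromosomes was 0.614 percentage points in replicate 1 and -1.97 in replicate 2. For the 101 other gene names with at least 15 probes off chromosomes 6, 12, 17 and Y it was -1.05 and -1.32.

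**Figure D2:**
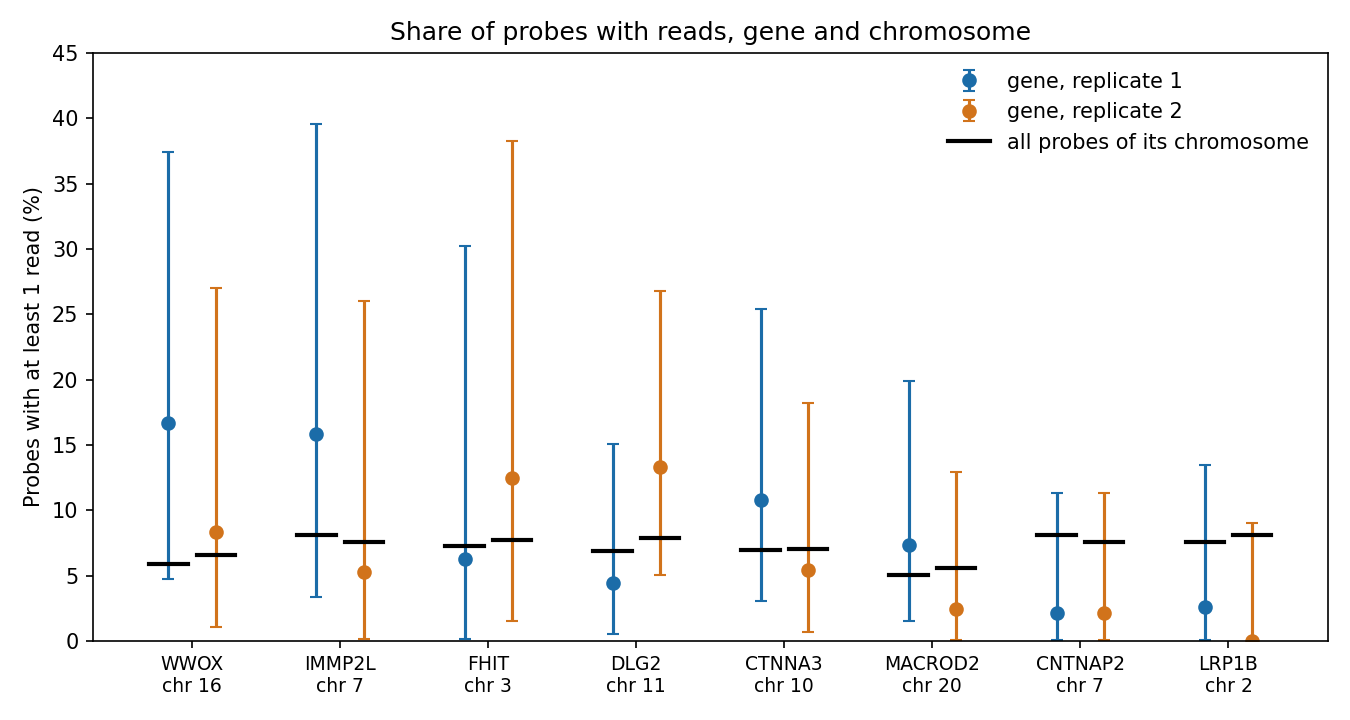
Share of probes with at least 1 read in each gene (points, with 95% Clopper-Pearson intervals; blue, replicate 1; orange, replicate 2) and in all probes of its chromosome (black bars), in percent. Genes are ordered by mean share, and every interval holds the share of the gene's chromosome in that library.

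The share of probes with reads inside the 8 genes lay within the interval of the 1 Mb flanks in both libraries. Inside the genes it was 7.09% in replicate 1 and 5.60% in replicate 2. Within 1 Mb beyond either end, 24 of 320 probes had reads in replicate 1 (7.50%, interval 4.86% to 11.0%) and 23 of 320 in replicate 2 (7.19%, interval 4.61% to 10.6%). The difference, genes minus flanks, was -0.410 and -1.59 percentage points, and the intervals overlapped in both libraries. The flanks beside FHIT may hold part of that gene. Between 2 Mb and 5 Mb away, 6.88% and 9.06% of 960 probes had reads. With each gene cut into 3 equal sections, the middle sections had reads at 6 and 3 of 89 probes (6.74% and 3.37%) and the outer sections at 13 and 12 of 179 (7.26% and 6.70%). For the 7 genes with a strand in the RefSeq promoter table, the probes before the gene's midpoint had reads in 9.57% of cases in replicate 1 and 4.35% in replicate 2, and those after it in 6.14% and 8.77%. The order of these shares thus turned round between the libraries.

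**Figure D3:**
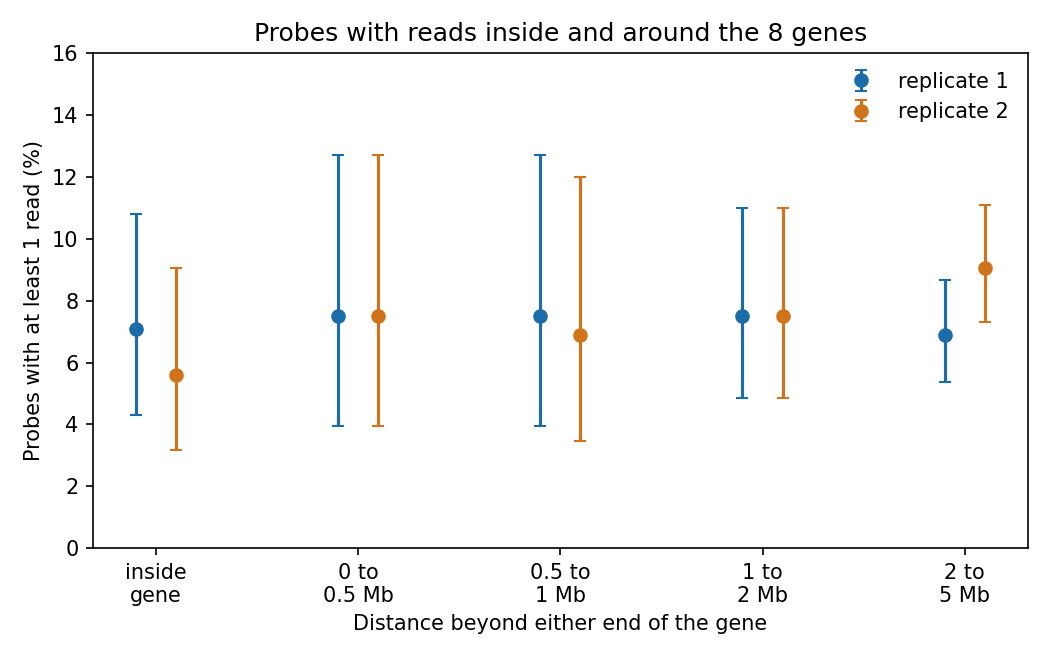
Share of probes with at least 1 read, in percent, inside the genes and at growing distance beyond either end, for the 8 genes pooled. Gene ends are those of the table, which covers FHIT in part. Points are shares and bars 95% Clopper-Pearson intervals, blue for replicate 1 and orange for replicate 2. The shares stay between 5.60% and 9.06%.

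Gene content of the flanks differed between the genes and with the measure. The share of flank probes that overlap a gene was lower than on the chromosome for 6 of the 8 genes. It was 25.0% beside LRP1B against 57.8% on chromosome 2, and 35.0% beside IMMP2L against 65.3% on chromosome 7. Beside FHIT it was 25.0% against 59.0% on chromosome 3. Probes in the part of FHIT that the table leaves out may count there as overlapping no gene. The share was higher beside MACROD2 (75.0% against 70.1%) and DLG2 (75.0% against 64.3%). Counted as gene names per 2 Mb, the flanks held fewer than the chromosome for 5 of the 8 genes. By this measure the flanks of CNTNAP2 (15 names against 11.3) and CTNNA3 (14 against 12.6) held more, where the share of overlapping probes was lower, and those of MACROD2 held fewer (11 against 16.3).

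On a log scale, the level of the 8 genes differed from that of their chromosomes by less than the spread between the libraries. The mean of log2(RPM + 1) over their probes minus that of the chromosomes was 0.0348 in replicate 1 and -0.0137 in replicate 2, with a mean of 0.0105 ± 0.0343 (n = 2). On the linear scale the genes averaged 7.30 and 6.51 RPM per probe, against 4.54 and 4.48 RPM on the chromosomes. In replicate 1 the higher mean rested on WWOX, whose top probe held 61.7% of the 1847 reads of the 8 genes there, and without WWOX the genes averaged 2.70 RPM in replicate 1, against 4.43 RPM on their chromosomes. In replicate 2 they averaged 6.98 RPM without WWOX, against 4.57 RPM, so the higher mean there did not rest on this gene. Few probes held most reads there too. Of 792 reads, the 4 probes with at least 100 reads held 245, 195, 114 and 114, in CTNNA3, CNTNAP2 and DLG2. Replicate 1 held 0 or 1 read at each of them. The 8 genes held 0.196% of the reads of replicate 1 and 0.174% of those of replicate 2.

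The libraries rarely met at the same probe, and where they did, 1 of them had a single read. Of 30 probes with reads in either library, 26 had them in one library and 4 in both, which is 21.1% of the detected probes of replicate 1 and 26.7% of those of replicate 2. The shared probes were 1 each in FHIT and CTNNA3 and 2 in WWOX. The product of the shares would give 1.06 such probes. Leaving aside chromosomes 6, 12, 17 and Y, both libraries had reads at 1.25% of probes, 660 in all against 232 from the product, or 19.4% and 18.3% of the detected probes of replicates 1 and 2. At all 4 shared probes of the 8 genes, one library held exactly 1 read, with 2, 18, 245 or 1140 reads in the other. The same held for 64.1% of the shared probes of chromosomes other than 6, 12, 17 and Y, for 32.1% on chromosome 6 and for 15.4% on chromosome 12. No probe of the 8 genes had at least 2 reads in both libraries.

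Over chromosomes other than 6, 12, 17 and Y, probes with at least 100 reads in one library more often had reads in the other than probes without reads. Replicate 1 held exactly 1 read at 18.7% of the 230 probes with at least 100 reads in replicate 2, and at 2.41% of the probes without reads there, and it held 2 or more reads at 14.8% and 3.18% of these probes. Replicate 2 held exactly 1 read at 15.8% of the 437 probes with at least 100 reads in replicate 1, and at 1.88% of those without, and it held 2 or more at 16.9% and 4.07%. Whether reads passed between the libraries was not tested.

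**Figure D4:**
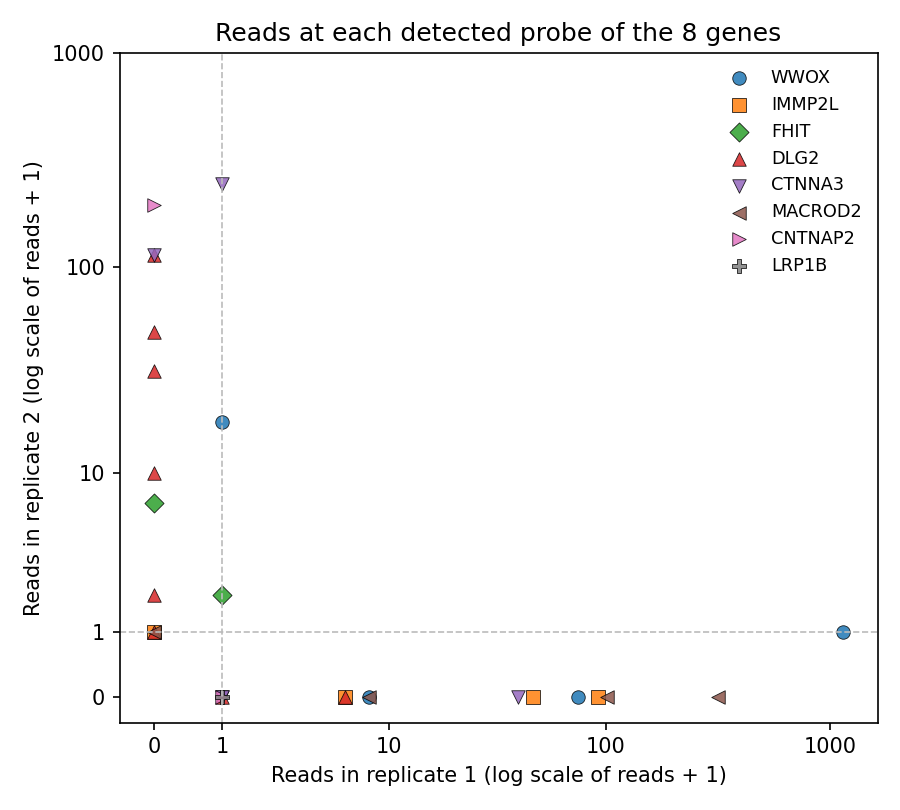
Reads at each probe of the 8 genes with reads in either library, replicate 1 on the x axis and replicate 2 on the y axis, both on a log scale of reads + 1, with 1 symbol per gene and dashed lines at 1 read. Every point lies at 0 or 1 read in at least 1 library, so no probe has at least 2 reads in both.

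The 8 genes were set beside other long genes. Their pooled share was 7.09% in replicate 1 and 5.60% in replicate 2, against 6.15% and 7.32% for the 101 other gene names with at least 15 probes off chromosomes 6, 12, 17 and Y. Their median shares were 6.78% and 5.33%, against 5.56% and 6.25% for the 101 others. Of the 101, 24 had no reads in replicate 1 and 28 none in replicate 2. Among 109 long genes, 101 had a lower share than WWOX in replicate 1 and 69 in replicate 2, while 83 had a higher share than LRP1B in replicate 1 and 80 in replicate 2. Length itself went with little change, as the mean share over both libraries was 6.45% in genes of 1 probe, 7.62% in those of 5 to 9 probes and 6.66% in those of 20 or more. Of 31 candidates with at least 20 probes, the 3 nearest to the 8 genes by their pair of shares were ROBO2, an axon guidance receptor gene (8.57% and 5.71%), GPC5, a glypican gene (6.67% and 3.33%), and CAMTA1, a transcription factor gene (4.76% in both). Likeness here rests on 2 values per gene.

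A second list of 24 genes of or near common fragile sites was described in the same way. The table held 23 of them, and FAM190A was not among its names. It covers some of the 23 in part, 1 over 450 kb against 2474 kb in RefSeq and PDE4D over 1100 kb against 1553 kb. Their shares describe the assigned parts alone. Reads reached 31 of their 433 probes in replicate 1 (7.16%, interval 4.92% to 10.0%), against 6.46% for their chromosomes, and 28 in replicate 2 (6.47%, interval 4.34% to 9.21%), against 6.40%. The difference had a mean of 0.380 ± 0.446 percentage points (n = 2), and of 0.803 counting probes with at least 2 reads. Above their chromosome in both libraries were 7 of the 23, below in both 8, and 8 differed in direction. Of the 109 gene names with at least 15 probes, 22.9% lay above in both and 37.6% below in both. The genes of the second list have 1 to 45 probes, so some fall short of 15 and these shares are not a like comparison. The gene of 1 probe had no reads and so counts as below. The interval left out the chromosome's share for 2 genes, both in replicate 2 and both named after their values were seen. PDE4D, a cyclic AMP phosphodiesterase gene, had reads at 5 of 22 probes there (interval 7.82% to 45.4%), against 7.71% of chromosome 5, and MAGI2, a membrane scaffold gene, at 6 of 30 (interval 7.71% to 38.6%), against 7.55% of chromosome 7. In replicate 1 their shares were 4.55% and 10.0%, against 7.82% and 8.09%, inside the intervals. With 23 genes in 2 libraries, some intervals may leave out the chromosome's share by chance. The number of comparisons was not corrected for, and how often this happened in other long genes is not given here. PDE4D and MAGI2 are therefore not taken to stand out. FRMD4A, a FERM domain gene on chromosome 10, had the highest share by the lower of the libraries, 21.4% of 14 probes in each, followed by DISC1, a neurodevelopmental scaffold gene, with 11.1% of 9 probes in each. ESRRG, an orphan nuclear receptor gene (14 probes), had no reads in either library.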

How the data were processed

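4C-seq contacts of the DRGFP transgene were analysed in 2 libraries of U2OS cells. Per the labels' protocols, chromatin was cut with HindIII and ligated, the DNA was cut with Csp6I and ligated into circles, and inverse PCR ran for 30 cycles, followed by 8 after adapter ligation. The labels mention no molecular identifiers, and without them few molecules can give a high value. The authors deposited signal per probe of 50 kb on hg18, per the submitters' processing notes for the build; the sources used here name no aligner, read filter, gene annotation or counting tool. The deposited signal values are RPM: 100% of those above 0 were whole multiples, within 0.1 read, of 1.06 in replicate 1 and 2.20 in replicate 2, from which reads were recovered. A count test needs a second group and was not run.

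A probe with at least 1 read counted as detected. Total and mean rows and the mitochondrial probe were left out. Names were matched through the RefSeq table of GRCh38.p14. The flanks are the probes up to 1 Mb beyond a gene as the table delimits it. The members and both lists were chosen with earlier results of these data known. Named were all 8 members, of the second list the 2 highest by the lower library, the lowest and any absent, and the 3 genes nearest by shares. A further gene of the set as first chosen is not reported here. Python 3.11.15, pandas 2.3.3 and SciPy 1.17.1 were used, and the procedure was tested on simulated data.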

Additional observations from a re-analysis of the deposited data

How the results depend on the processing

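Of 34 alternative values for 7 results, 26 moved by less than the spread between the libraries or by less than 1.5 times for counts. The 26 include means with 1 of the 2 libraries left out. That step moves a mean by less than the SD whatever the values, so it could not show a shift. With at least 2 reads per detected probe, the difference of the 8 genes from their flanks was -0.114 percentage points, the number of genes above their chromosome in both libraries 0, and the number of shared probes of the 8 genes 0 instead of 4. With at least 10 reads the differences from the chromosomes and from the flanks were 0.207 and 0.299, where the reported means are negative, and 2 genes (WWOX and CTNNA3) lay above. The difference from the flanks was then -0.513 in replicate 1 and 1.11 in replicate 2. With at least 2 reads it was 0.0420 and -0.271, so at both settings its sign differed between the libraries. Over detected probes alone, the log2 level of the 8 genes lay 0.606 above that of their chromosomes, from few probes. Leaving out 1 replicate gave 3 to 4 genes above their chromosome, -1.64 to 0.142 for the 8 genes, 0.0641 to 0.695 for the second list, -1.59 to -0.410 against the flanks, -0.0137 to 0.0348 for the log2 level and -3.33 to -0.521 for the middle against the outer sections. The causes were not tested. Settings on shared probes, on the sections and without WWOX were chosen after seeing the data. No paired analysis was possible because the libraries form 1 group. Genes have 16 to 47 probes, which limits what their shares can show, and copy number in this aneuploid line was not measured here.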

Other observations

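Detected probes lay beside another detected probe of the same gene and library in 6 of 19 cases in replicate 1 (31.6%) and 3 of 15 in replicate 2, against 15.2% and 16.6% of detected probes on chromosomes other than 6, 12, 17 and Y. These were pairs in WWOX, MACROD2 and CTNNA3 in replicate 1 and the 3 DLG2 probes in replicate 2.

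In replicate 1, probe 11 of 5 of the 8 genes (WWOX, IMMP2L, LRP1B, CNTNAP2 and DLG2), which starts 500 kb from the first probe, had reads, and in replicate 2 that of WWOX had. In LRP1B and CNTNAP2 this was 1 read each. Probes are numbered by coordinate whatever the strand, so the position differs in meaning between genes. The position was chosen after its values were seen and was not tested. How often probe 11 of other long genes had reads is not given here.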
